A study of Mus musculus with 6 samples.

Results

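The constitutive proteasome subunits are the genes whose symbol on the array begins with Psma, Psmb, Psmc or Psmd. The interferon-inducible subunits Psmb8, Psmb9 and Psmb10 and pseudogenes were left out. This gave 37 of the 19057 named genes of the table: 16 of the core particle (Psma and Psmb), 17 of the regulatory particle (Psmc and Psmd) and 4 that carry such a symbol but are no subunits of the finished complex. RNA of M2-like macrophages was measured on 6 Illumina bead arrays, 2 for each of 3 groups. The groups were macrophages of the heart after myocardial infarction (MI heart), of the intact heart and of the peritoneal cavity. All came from C57BL/6 mice aged 10 weeks, and the series title defines the cells as positive for CD206, F4/80 and CD11b. No group is labelled as sham-operated. Neither the interval since infarction nor how many mice went into an array is stated in the labels. Nor do they say that the 2 arrays of a group held separate animals, so the p-values may rest on technical variation alone.

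The proteasome is the main protease for proteins tagged with ubiquitin. Its core is a barrel of alpha subunits, which form the gate, and beta subunits, of which Psmb5, Psmb6 and Psmb7 carry the active sites. The regulatory particle caps the barrel: the ATPases of its base unfold the substrate, and its lid removes the ubiquitin chain. In macrophages the proteasome degrades regulators such as inhibitors of NF-kB and makes peptides for presentation on MHC class I.

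All values below are log2 intensities after background correction and quantile normalization, and differences are log2 differences ± SE with n = 2 arrays per group. A probe's level was not set against that of another probe. Of 45281 probes, the MI heart arrays had 14023 and 14473 above background (detection p under 0.05), the intact heart arrays 12433 and 13397, and the peritoneal arrays 14091 and 14606. Of 7 macrophage markers on the array all 7 were above background. Outside macrophages this held for 7 of 11 cardiomyocyte, 4 of 10 fibroblast, 2 of 10 neutrophil, 2 of 4 B cell, 1 of 10 endothelial and 1 of 6 T cell markers. The endothelial markers Pecam1, Kdr and Vwf, the T cell receptor genes Cd3e and Cd3d, and the cardiomyocyte genes Actc1 and Tnni3 were not above background. Of the genes for the defining markers, Mrc1 and Itgam differed between groups. Mrc1 read 8.64 and 9.07 in the MI heart and 9.57 and 9.51 in the intact heart, against 5.20 and 4.99 in the peritoneal cavity. Itgam differed by 1.02 ± 0.24 between MI and intact heart and by -2.08 ± 0.24 between intact heart and peritoneal cavity. Adgre1 differed by 0.30 ± 0.25 and -0.43 ± 0.25, in the same order. The part of this in the proteasome differences was not tested.

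Of the 37 genes, 29 passed the filter (above background on both arrays of at least 1 group): 11 of 16 core genes, 16 of 17 regulatory genes and 2 of the other 4. The 8 that did not pass were Psma1, Psma3, Psma6, Psma8, Psmb11, Psmc3ip, Psmc6 and Psmd5. Psma8 is the core subunit of the testis, Psmb11 that of the thymic cortex, and Psmc3ip is a partner of meiotic recombinases. The others are parts or assembly factors of every proteasome. Their probes on this array read between 4.11 and 4.16 for Psma3, between 4.14 and 4.20 for Psma1 and between 4.24 and 4.65 for Psma6, levels at which an array gives no usable difference. Counts over the 29 tested genes are therefore not counts over all members.

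In the MI heart, proteasome genes stood higher than in the intact heart almost without exception in direction, by small amounts. Of the 29 tested genes, 28 had a positive difference, as did 49.6% of all genes tested, and 5 passed the test as higher, 0 as lower and 24 were not called (limma's moderated test, Benjamini-Hochberg adjusted p under 0.05). Among all 10533 genes and unnamed probes tested, 4.55% were called higher and 4.96% lower, or 9.5% in all. Under median scaling, 5.79% of all were called higher out of 7.36% called. The number of members called higher was also 5, but Psma2, called in the main fit, was not among them. Of the 26 members above background on both arrays of both groups, 25 had a positive difference. The members' median difference was 0.37, or 1.296-fold, and that of all tested was -0.00. The called genes were Psmb6, Psmb1, Psma2, Psmd2 and Psmd14, between 1.58-fold and 1.91-fold higher. Without MI heart replicate 1, or without MI heart replicate 2, 0 members were called by limma, with 1.36% and 1.82% of all tested called. The members' median difference was then 0.32 and 0.42.

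**Figure D1:**
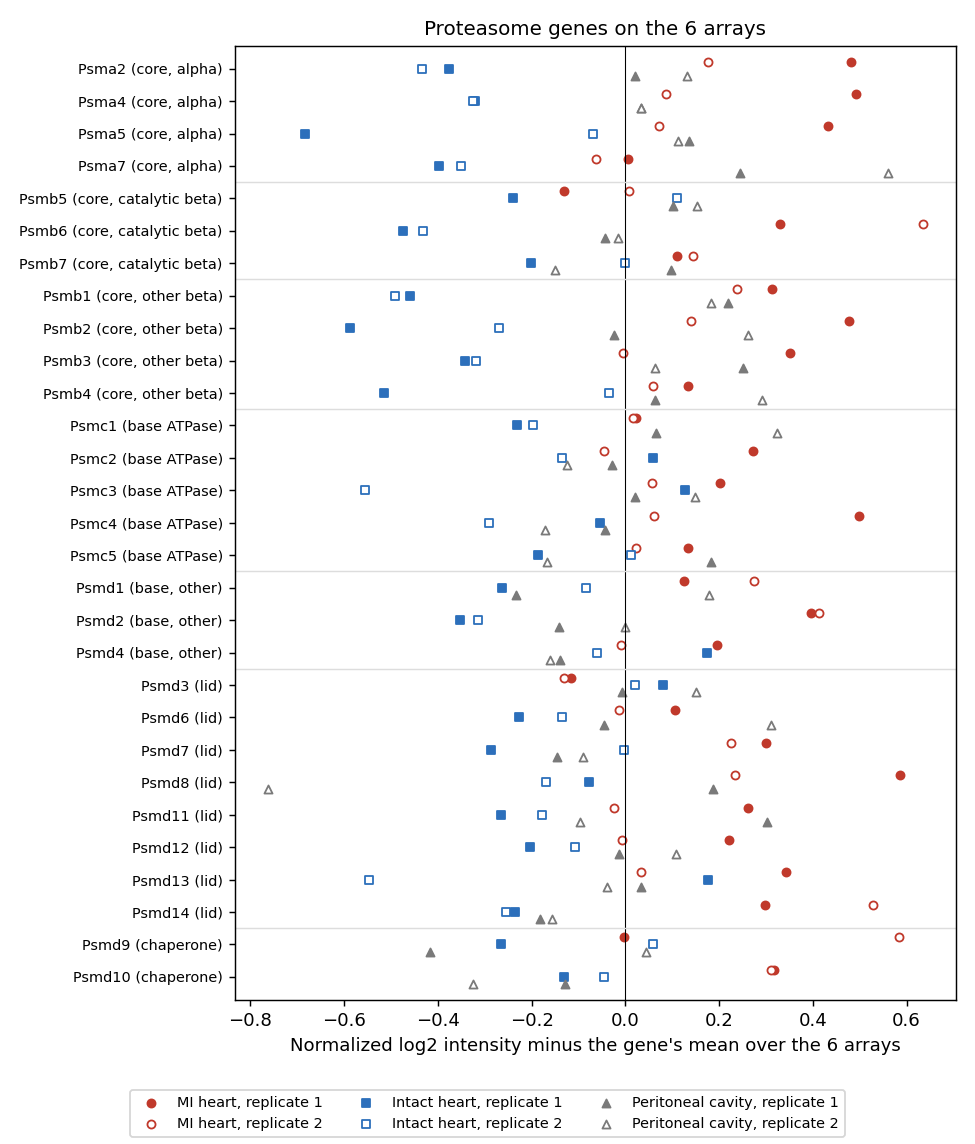
Each row is 1 tested gene and each symbol 1 array: the horizontal axis gives the normalized log2 intensity minus the gene's mean over the 6 arrays. Both MI heart arrays (circles) lie to the right of both intact heart arrays (squares) in 22 of the 29 rows, Psmd6 and Psmd11, dim in the intact heart, among them. Psmb5 was not above background in either heart group.

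Psmb6, the beta subunit that cuts after acidic residues, showed the largest difference among the members. It read 6.997 and 7.30 on the MI heart arrays, 6.19 and 6.23 on the intact heart arrays and 6.62 and 6.65 in the peritoneal cavity. The 3 groups did not overlap, with the MI heart on top and the intact heart at the bottom. The difference between MI and intact heart was 0.94 ± 0.17, or 1.91-fold (adjusted p = 0.0109). A further Psmb6 probe, not used for the call, differed by 0.68. Of the other catalytic subunits 0 were called, and only Psmb7 could be measured in the hearts. Psmb7, the subunit that cuts after basic residues, read 7.96 and 7.995 in the MI heart, 7.65 and 7.85 in the intact heart and 7.95 and 7.70 in the peritoneal cavity. Its difference of 0.23 ± 0.17 was not called (adjusted p = 0.447), with a 95% interval of -0.15 to 0.61. Its 3 usable probes differed by between -0.00 and 0.25. Psmb5, the subunit that cuts after hydrophobic residues and the main target of bortezomib, read 4.23 and 4.37 in the MI heart, 4.12 and 4.47 in the intact heart and 4.46 and 4.51 in the peritoneal cavity. It was above background on the peritoneal arrays and on none of the 4 heart arrays, so no fold is given for it.

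Psmb1, a beta subunit of the core without an active site, read 6.87 and 6.80 in the MI heart, 6.10 and 6.07 in the intact heart and 6.78 and 6.74 in the peritoneal cavity. The intact heart arrays lay well below the other 4, which lay close together. The difference between MI and intact heart was 0.75 ± 0.15, or 1.68-fold (adjusted p = 0.0175). Psma2, an alpha subunit, read 10.08 and 9.77 in the MI heart, 9.22 and 9.16 in the intact heart and 9.61 and 9.72 in the peritoneal cavity. Again the intact heart was lowest, and no groups overlapped. The difference of 0.73 ± 0.17, or 1.66-fold (adjusted p = 0.03), passed the test, but it missed the threshold under 10 of 16 alternatives, among them median scaling (adjusted p = 0.0563) and the fit of these 2 groups alone (adjusted p = 0.0644). Both genes have 1 probe on the array.

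The other tested core genes were not called, and each differed in the same direction. The alpha subunits Psma4 (0.61 ± 0.18, adjusted p = 0.0649) and Psma5 (0.63 ± 0.23, adjusted p = 0.123) came nearest among the alpha subunits, and Psma7 differed by 0.35 ± 0.17 (adjusted p = 0.243). Among beta subunits without an active site, Psmb2 lay just outside the threshold (0.74 ± 0.20, adjusted p = 0.0511), with a further usable probe at 0.60. Psmb3 and Psmb4 differed by 0.50 ± 0.18 (adjusted p = 0.116) and 0.37 ± 0.20 (adjusted p = 0.282). For each of these 6 genes both MI heart arrays lay above both intact heart arrays. The intact heart arrays lay wide apart for Psma5, at 7.43 and 8.04, and for Psmb4, at 8.29 and 8.77.

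In the regulatory particle, 2 of 16 tested genes were called higher, against 4.55% of all tested. Psmd2, the base scaffold on which ubiquitin receptors dock, read 5.92 and 5.93 in the MI heart, 5.17 and 5.21 in the intact heart and 5.38 and 5.52 in the peritoneal cavity. Replicates lay close together and the MI heart stood above both other groups, with a difference from the intact heart of 0.74 ± 0.15, or 1.67-fold (adjusted p = 0.0202; adjusted p = 0.0592 without intact heart replicate 1). A further Psmd2 probe differed by 0.64. Psmd14, the lid enzyme that cuts the ubiquitin chain off the substrate, read 6.41 and 6.64 in the MI heart, 5.88 and 5.86 in the intact heart and 5.93 and 5.96 in the peritoneal cavity. Here the intact heart and the peritoneal cavity stood side by side and the MI heart above them. The difference from the intact heart was 0.66 ± 0.16, or 1.58-fold (adjusted p = 0.036), and 0.95 with a further probe. It missed the threshold under 8 of 16 alternatives, the fit of the 2 groups alone included (adjusted p = 0.0722).

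The sequences before the starts of Psma2, Psmb6, Psmd2 and Psmd14, from RefSeq (GRCm38.p6), are shown because these genes were called together. The fifth called gene is Psmb1. Each is the run of 120 bases up to the base before the start, 5′ to 3′ on the gene's strand. Capitals mark the antioxidant response element core TGACNNNGC, to which Nfe2l1 and Nfe2l2 bind, the NF-Y box CCAAT, or the heat-shock element core GAANNTTC.
Psma2, chr13:14613122-14613241, plus strand: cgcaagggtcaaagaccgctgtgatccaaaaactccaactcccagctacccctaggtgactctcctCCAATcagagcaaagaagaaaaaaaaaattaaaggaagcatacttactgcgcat
Psmb6, chr11:70525237-70525356, plus strand: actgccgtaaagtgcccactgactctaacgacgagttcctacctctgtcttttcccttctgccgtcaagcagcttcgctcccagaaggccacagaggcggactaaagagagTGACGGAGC
Psmd2, chr16:20651532-20651651, plus strand: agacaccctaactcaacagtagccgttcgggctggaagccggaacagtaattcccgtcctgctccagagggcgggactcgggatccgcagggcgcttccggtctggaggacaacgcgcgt
Psmd14, chr2:61711574-61711693, plus strand: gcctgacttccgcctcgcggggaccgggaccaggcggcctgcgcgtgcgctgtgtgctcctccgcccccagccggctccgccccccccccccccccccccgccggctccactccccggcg
The 4 sequences share no match: Psma2 has CCAAT from base -54, Psmb6 has TGACGGAGC ending at base -1, and Psmd2 and Psmd14 have none in these 120 bases. Psmd14 has CCAAT on the other strand further out, from base -159.

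The search covered the 250 bases before each start on both strands, over 32 promoters of 30 member genes and 32851 promoters in all. Psma8, Psmb1, Psmb2, Psmb7, Psmc3, Psmd3 and Psmd7 were not searched. TGACNNNGC was present in 5 of the 32, or 15.6%, and in 10.2% of all. CCAAT was present in 13, or 40.6%, and in 33.8% of all, and GAANNTTC in 1, or 3.12%, and in 6.69% of all. Matches of different patterns overlapped in 0 cases. TGACNNNGC lay before Psmb6, Psmb5, Psmc6, Psmd9 and Psmd12, of which Psmb6 is the called one. These are matches of letters, not known sites, and an absent match says only that the letters are not in this window.

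The remaining regulatory genes moved less. The 5 tested ATPases of the base, Psmc1 to Psmc5, differed by between 0.15 and 0.45, with a median of 0.23, and 0 were called. In the base, the scaffold Psmd1 differed by 0.37 ± 0.19 (adjusted p = 0.255). Psmd4, a ubiquitin receptor, was level, at 11.24 and 11.03 in the MI heart and 11.22 and 10.98 in the intact heart (0.03 ± 0.17, 95% interval -0.34 to 0.41). In the lid, 5 of the 6 genes above background in both groups differed by a positive amount, with a median of 0.39. The exception was the scaffold subunit Psmd3, at 5.06 and 5.04 in the MI heart and 5.26 and 5.20 in the intact heart (-0.17 ± 0.15, adjusted p = 0.54). Psmd7, the lid partner of Psmd14, differed by 0.41 ± 0.17 (adjusted p = 0.166), but its 3 usable probes disagreed, between -0.50 and 0.41. Psmd8 differed by 0.53 ± 0.28, Psmd13 by 0.37 ± 0.24 and Psmd12 by 0.26 ± 0.16, none of them called. Psmd11, at 4.82 and 4.53 in the MI heart, was not above background in the intact heart, where it read 4.29 and 4.38. Psmd6, at 4.72 and 4.599 in the MI heart and 4.39 and 4.48 in the intact heart, was above background on 1 of the 2 intact heart arrays. Neither was called, and no difference is given for them. The assembly chaperones of the base, Psmd9 and Psmd10, which take no part in the finished particle, differed by 0.39 ± 0.24 and 0.40 ± 0.16.

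**Figure D2:**
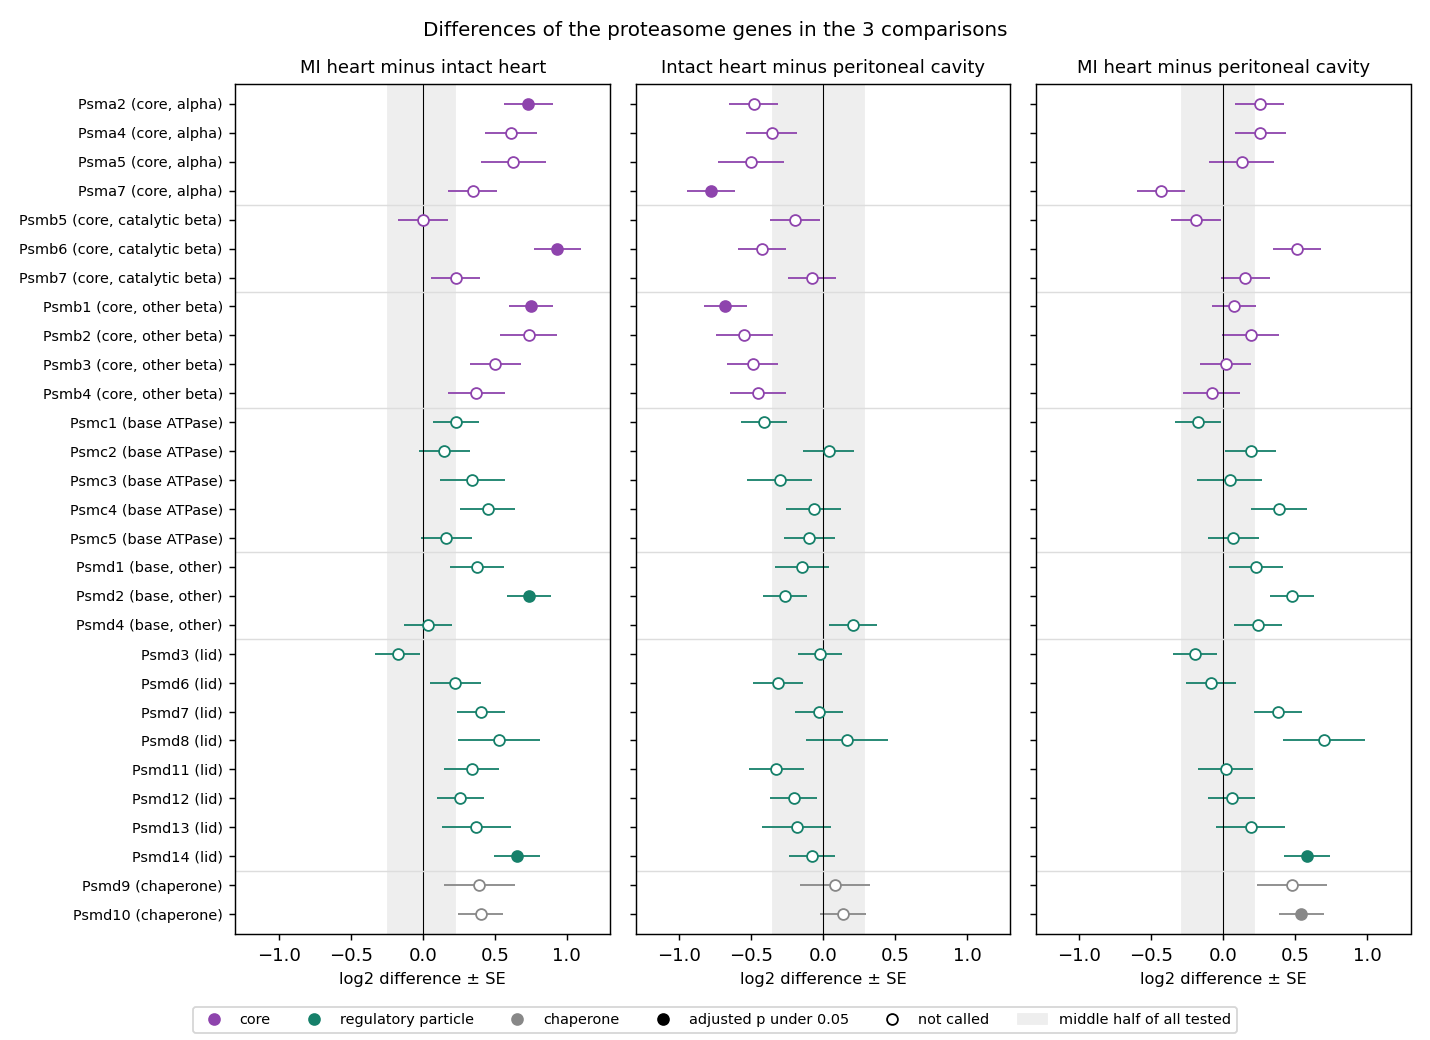
Points are log2 differences ± SE of the 29 tested genes in each of the 3 comparisons, filled where the adjusted p was under 0.05. The grey band spans the quartiles of all tested genes. In the left panel, MI heart minus intact heart, 28 points lie right of 0 and 5 are filled. In the middle panel, intact heart minus peritoneal cavity, the core genes lie left of 0 (Psmb5, which was not above background in either heart group, included). The right panel is MI heart minus peritoneal cavity, with 2 filled points.

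Without a test, position alone separated the groups more often than the calls did. Both MI heart arrays lay above both intact heart arrays for 22 of the 29 genes, or 75.9%, against 26.1% of all tested, and below them for 1 gene, against 28% of all. The 22 include Psmd6 and Psmd11, which were not above background on both intact heart arrays and passed the filter only through the other groups. At an unadjusted p under 0.05, 12 members were higher and 0 lower, against 11.8% and 13.3% of all. Of the 47 usable probes of members, 44 had a positive difference, but the 47 include the 29 probes already used for the genes. Of the 14 genes with several usable probes, 12 had 1 sign. The share over all probes was not taken. The number of probes above background was lowest on the intact heart arrays. Summed cardiomyocyte markers (normalized intensity, linear) lay between 170 and 175 in the MI heart and 253 and 307 in the intact heart. In the peritoneal cavity they lay between 144 and 150. Such sums include background readings, so their ratios are not ratios of RNA. Myh6, Tnnc1, Myl2, Myl3 and Mb were not above background on any peritoneal array. Of the 7 summed, 6 were higher in the intact heart than in the peritoneal cavity, Myl2 the most (6.25 and 6.77 against 4.14 and 4.14, log2). Ryr2 went the other way, at 4.94 and 5.21 in the peritoneal cavity, and was not above background on any heart array. Of the 2 neutrophil markers, S100a9 read 7.25 and 5.42 (log2) in the MI heart, 4.43 and 4.41 in the intact heart and 4.35 and 4.25 in the peritoneal cavity, so that it was high mainly on MI heart replicate 1. The other, Ltf, was not above background in the MI heart, at 4.39 and 4.35, and read 5.01 and 4.47 in the intact heart. Fibroblast markers summed to between 110.2 and 116 in the MI heart and 84.8 and 85.7 in the intact heart. In the peritoneal cavity the sum lay between 77.5 and 81.5, where Col1a1, Col3a1 and Dcn were not above background. The 1 T cell marker above background was Il7r, a cytokine receptor gene, at 5.73 and 6.12 (log2) in the MI heart, 4.56 and 4.87 in the intact heart and 4.33 and 4.32 in the peritoneal cavity. Cd3e, Cd3d, Cd3g, Cd4 and Cd8a were not above background. The part of these in the proteasome differences was not tested. In RNA of pooled cells, a smaller share of a cell type and less RNA per cell cannot be told apart.

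Between MI and intact heart the core had a larger median difference than the regulatory particle. The median difference of the 11 tested core genes was 0.61, or 1.53-fold, and that of the 16 regulatory genes was 0.34, or 1.27-fold. Without Psmb5, Psmd6 and Psmd11, which were dim on at least 1 heart array, the medians were 0.62 over 10 core genes, all 10 positive, and 0.36 over 14 regulatory genes, 13 positive. With these 3 genes put back, the alpha subunits had a median of 0.62, beta subunits 0.50, base subunits 0.29 and lid subunits 0.36. The lid median without Psmd6 and Psmd11 was 0.39. The beta median counts Psmb5, the lowest beta gene, which was not above background in either heart group. No gap between alpha and beta subunits is therefore read from these medians. Of core genes 3 of 11 were called higher and of regulatory genes 2 of 16, against 4.55% of all tested. Counts this small do not set the particles apart. With each gene set to its mean over the 6 arrays, the core median minus the regulatory median was 0.09 and 0.06 on the MI heart arrays, -0.20 and -0.17 on the intact heart arrays and, in the peritoneal cavity, 0.12 and 0.20. Both intact heart arrays were thus below the other 4. The contrast rests on the genes that passed the filter: with no filter, 5 further core genes enter near background, the core median is 0.36 and the core minus regulatory difference is 0.02. Without background correction the medians were 0.43 for the core and 0.15 for the regulatory particle. The 2 sets were not matched for intensity, and the part of intensity in the contrast was not tested. No test was made of the contrast itself, since genes are not replicates.

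**Figure D3:**
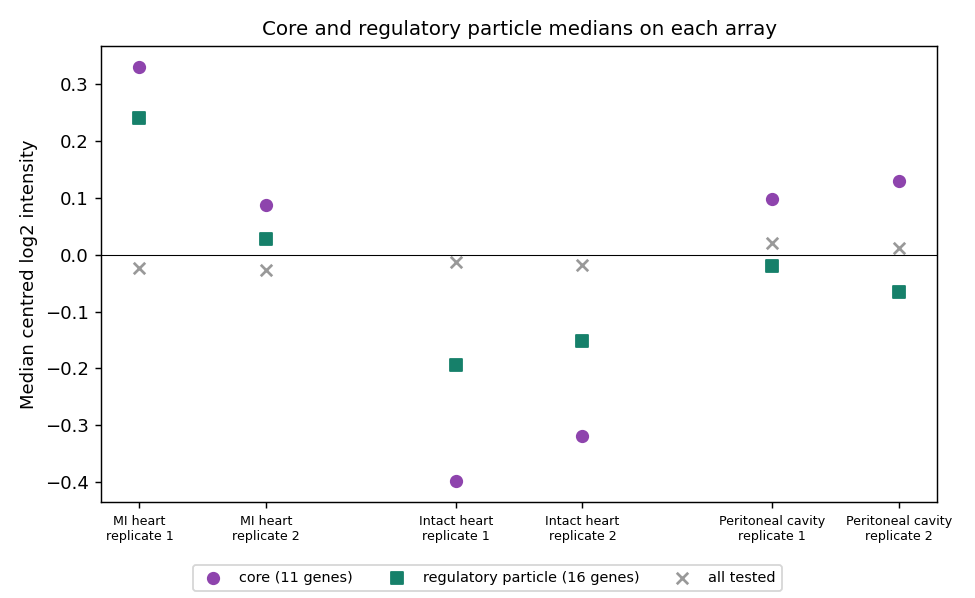
For each array, the median over the 11 tested core genes, the 16 tested regulatory genes and all tested genes, of the log2 intensity minus the gene's mean over the 6 arrays. The core lies at 0.33 and 0.09 on the MI heart arrays, at -0.40 and -0.32 on the intact heart arrays and at 0.10 and 0.13 in the peritoneal cavity, and the median of all tested genes stays between -0.03 and 0.02.

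The 2 MI heart arrays did not show the difference equally. Of the 29 genes, 22 were higher on MI heart replicate 1 than on replicate 2, against 51.2% of all tested, with a median gap of 0.11. The core median was 0.33 on replicate 1 and 0.09 on replicate 2, and the regulatory median 0.24 and 0.03. The signed median gap (replicate 1 minus replicate 2) was -0.04 in the intact heart and -0.03 in the peritoneal cavity. The SD, over all genes tested, of the difference between the 2 replicates was 0.273 in the MI heart, 0.366 in the intact heart and 0.288 in the peritoneal cavity. Single genes departed from this: Psmd13 differed by 0.72 between the intact heart arrays, Psmd8 by 0.95 between the peritoneal arrays, and Psmd9 by -0.59 between the MI heart arrays (replicate 1 minus replicate 2).

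Against the peritoneal cavity, the core genes Psma7 and Psmb1 were lower in the intact heart and no regulatory gene was called. Of the 29 genes 0 were called higher, 2 lower and 27 not called, or 6.9% called. This is under the share of all tested, of which 12.5% were called higher and 12.8% lower, or 25.4% in all (7.03% higher of 25.2% with median scaling). Of the 29 differences 5 were above 0, against 47.3% of all. Of the 10 core genes above background in both groups all 10 had a negative difference, with a median of -0.48. Of the 14 such regulatory genes 11 had one, with a median of -0.08. The median over all tested was -0.03, and the core was not tested against the regulatory particle. This comparison shares the intact heart arrays with the one before, so the 2 are not independent.

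Psma7, an alpha subunit, was the most changed. It read 7.83 and 7.88 in the intact heart, against 8.48 and 8.79 in the peritoneal cavity. The arrays did not overlap, and the difference of -0.78 ± 0.17 (adjusted p = 0.00983), 1.71-fold lower in the intact heart, was larger still with its further probe (-1.03). Without peritoneal cavity replicate 2 its adjusted p was 0.0676. Psma7 was also the core gene furthest below the peritoneal level in the MI heart, at 8.24 and 8.17 (-0.43 ± 0.17, adjusted p = 0.122). Psmb1, with the values given above, was lower in the intact heart by -0.68 ± 0.15 (1.60-fold, adjusted p = 0.0113; adjusted p = 0.0651 without peritoneal cavity replicate 1).

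The other core genes fell short of the threshold. Psma2 differed by -0.48 ± 0.17 (adjusted p = 0.068), Psmb2 by -0.55 ± 0.20 (adjusted p = 0.075), Psmb3 by -0.49 ± 0.18 (adjusted p = 0.0771) and Psmb6 by -0.42 ± 0.17 (adjusted p = 0.0962). Psma5, Psmb4 and Psma4 differed by -0.50, -0.45 and -0.36. Both intact heart arrays lay below both peritoneal arrays for 9 of the 11 core and 6 of the 16 regulatory genes (Psmd6 and Psmd11 among them), or 51.7% of the 29, against 33.5% of all tested, and above them for 1 gene, against 29.8% of all. At an unadjusted p under 0.05, 8 members were lower, against 20.2% of all, and 0 higher, against 17.6%. Among regulatory genes the lowest was the ATPase Psmc1 (-0.41 ± 0.16, adjusted p = 0.0974), at 6.03 and 6.07 in the intact heart, against 6.33 and 6.59 in the peritoneal cavity. The highest was Psmd4 (0.21 ± 0.17, adjusted p = 0.4), at 11.22 and 10.98 in the intact heart, against 10.90 and 10.88 in the peritoneal cavity.

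**Figure D4:**
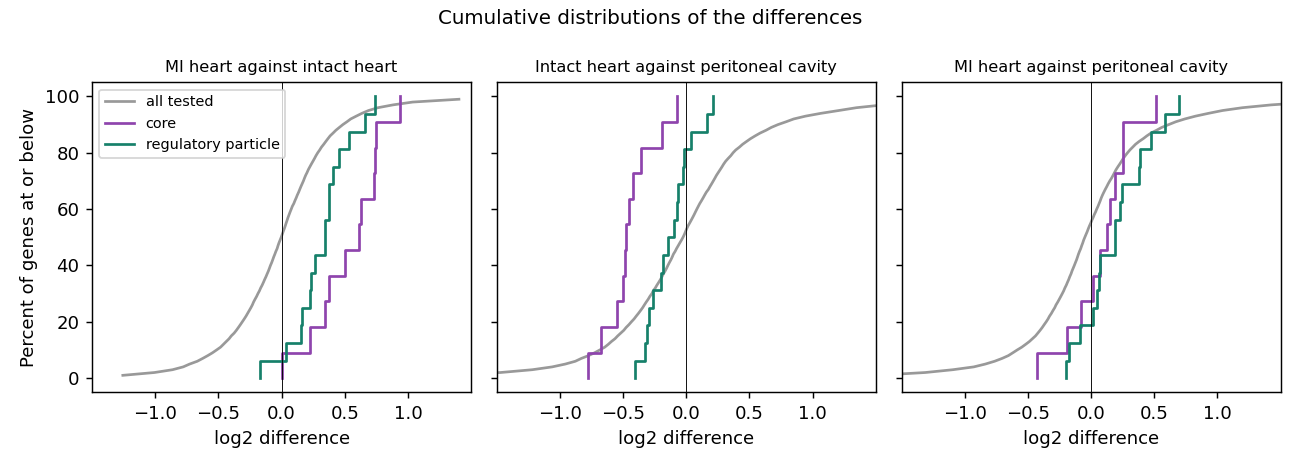
The horizontal axis gives the log2 difference and the vertical axis the percent of genes at or below it, for 11 core genes, 16 regulatory genes and all tested genes. In the left panel both particles lie right of the curve of all genes over most of its height, with medians of 0.61 for the core and 0.34 for the regulatory particle (Psmb5, Psmd6 and Psmd11 included). In the middle panel the core lies left, with a median of -0.48, and the regulatory particle nearer the middle of all genes.

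Between MI heart and peritoneal cavity, 1 subunit and 1 assembly chaperone were called. In all, 2 of 29 genes were called higher in the MI heart, 0 lower and 27 not, or 6.9%, against 9.16% of all tested called higher, 8.45% lower and 17.6% in either direction. Both MI heart arrays lay above both peritoneal arrays for 12 members, against 27.3% of all, and below them for 4 (Psmb5, not above background in the MI heart, among them), against 33.7% of all. At an unadjusted p under 0.05, 6 members were higher and 1 lower, against 14% and 15.5% of all. Of the 29 differences 23 were above 0, against 44.7% of all. The core median was 0.14 over the 10 genes above background in both groups, with 8 of 10 positive, the regulatory median 0.19 with 13 of 16 positive, and the median over all tested was -0.05. Psmd14 was one of the called genes, with a difference of 0.58 ± 0.16, or 1.497-fold (adjusted p = 0.0354). Its further probe differed by 0.67, and the call was lost under 6 of 16 alternatives, median scaling among them (adjusted p = 0.0847). The other was Psmd10, known as gankyrin, a chaperone that holds the base ATPase Psmc4 during assembly. It read 7.25 and 7.25 in the MI heart, 6.80 and 6.89 in the intact heart and 6.81 and 6.61 in the peritoneal cavity (MI heart minus peritoneal cavity 0.54 ± 0.16, adjusted p = 0.0457). Its other 2 usable probes differed by -0.03 and 0.03, and with the mean of its probes the difference was 0.18 (adjusted p = 0.497), so the call rests on 1 probe. Psmd2 (0.48 ± 0.15, adjusted p = 0.0663) and Psmb6 (0.51 ± 0.17, adjusted p = 0.0684) stood close to the threshold. Psmd8 had the largest difference, 0.70 ± 0.28 (adjusted p = 0.138), with its peritoneal arrays apart at 7.58 and 6.64. A further usable Psmd8 probe, not used for the test, differed by 1.09. It read 6.73 and 6.84 in the MI heart and 5.70 and 5.69 in the peritoneal cavity. Without MI heart replicate 1, without MI heart replicate 2 or without peritoneal cavity replicate 2 0 members were called here by limma, and 1 was without peritoneal cavity replicate 1.

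Over the 3 groups, the intact heart had the lowest mean for 23 of the 29 genes, or 79.3%, against 35.9% of all tested. The MI heart had the lowest mean for 1 gene, against 31.2% of all, and the peritoneal cavity for 5, against 32.9% of all. The intact heart had the highest mean for 0, against 33.6% of all. The MI heart had the highest mean for 23, against 25.5% of all, and the peritoneal cavity for 6, against 40.9%. For 15 genes, or 51.7%, both intact heart arrays lay below the other 4 arrays, as did 15.8% of all tested, and 9 of these 15 were core genes. Psmd6 and Psmd11 are among these 15 and, with Psmb5, among the 23 with the lowest mean in the intact heart. These genes were not above background on both intact heart arrays and passed the filter only through other groups, so nothing is read from their places. The means ran in the order intact heart, peritoneal cavity, MI heart for Psmb6, Psma2 and Psmd2, and for these neighbours in that order were not called apart. For Psmb1 the peritoneal cavity and the MI heart did not differ beyond their error (0.07 ± 0.15). For Psmd14 the intact heart and the peritoneal cavity did not (-0.08 ± 0.16). For Psma7 the order was intact heart, MI heart, peritoneal cavity.

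Of the 3 inducible catalytic subunits that replace Psmb5, Psmb6 and Psmb7 after interferon, 2 were called higher in the MI heart than in the intact heart. Of all tested, 4.55% were. Psmb9, which takes the place of Psmb6, read 8.52 and 8.31 in the MI heart, 7.51 and 7.54 in the intact heart and 7.44 and 7.84 in the peritoneal cavity. It was higher in the MI heart than in the intact heart by 0.89 ± 0.18 (adjusted p = 0.0201) and than in the peritoneal cavity by 0.77 ± 0.18 (adjusted p = 0.0202). Psmb10 was higher than in the intact heart by 0.97 ± 0.26 (adjusted p = 0.0496), and Psmb8 differed by 0.81 ± 0.23 (adjusted p = 0.0581). Psmb8 was higher in the MI heart than in the peritoneal cavity by 0.91 ± 0.23 (adjusted p = 0.0234). Between intact heart and peritoneal cavity 0 of the 3 were called, with differences of 0.11 ± 0.23 for Psmb8, -0.12 ± 0.18 for Psmb9 and -0.46 ± 0.26 for Psmb10.

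The partners of the proteasome were counted by list. Between MI and intact heart, 0 of 4 tested activators (Psme1 to Psme4), 0 of 4 core assembly chaperones and 0 of 11 receptors and bound proteins were called, against 9.5% of all tested. Such short lists cannot be set apart from that share. Pomp, the chaperone that matures the core, differed by 0.48 ± 0.18 (adjusted p = 0.139), and Psme3, the nuclear activator, by 0.58 ± 0.20 (adjusted p = 0.116). Between intact heart and peritoneal cavity, 1 of the 11 receptors and bound proteins was called higher and 2 lower, against 12.5% and 12.8% of all tested. Uchl5, a deubiquitinase of the base, was lower in the intact heart (-0.65 ± 0.18, adjusted p = 0.0305), as was the shuttle protein gene Ubqln4 (-0.51 ± 0.15, adjusted p = 0.036). Zfand2a, an arsenite-inducible protein that binds the proteasome, went the other way. It read 7.28 and 7.99 in the MI heart and 7.40 and 8.04 in the intact heart, against 4.94 and 5.03 in the peritoneal cavity. The difference from the peritoneal cavity was 2.65 ± 0.27, or 6.29-fold (adjusted p = 0.000215), for the MI heart and 2.73 ± 0.27, or 6.66-fold (adjusted p = 0.000155), for the intact heart.

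Of 6 tested genes for the transcription and processing of proteasome regulators, 0 were called between MI and intact heart, against 9.5% of all tested. Nfe2l1, the factor that drives proteasome genes when proteasomes fail, read 7.43 and 7.15 in the MI heart, 7.07 and 6.69 in the intact heart and 6.85 and 6.70 in the peritoneal cavity, with a difference between MI and intact heart of 0.41 ± 0.19 (adjusted p = 0.224). Nfe2l2, the factor of the oxidative stress response, read 6.98 and 7.17 in the MI heart and 6.94 and 6.93 in the intact heart, against 5.64 and 5.69 in the peritoneal cavity. Both heart groups were higher than the peritoneal cavity, the intact heart by 1.27 ± 0.16 (adjusted p = 0.000522) and the MI heart by 1.41 ± 0.16 (adjusted p = 0.000334), while they did not differ detectably from each other (0.14 ± 0.16, adjusted p = 0.636). Uba6, an enzyme that activates ubiquitin, was lower in the MI heart than in the intact heart (-1.62 ± 0.21, adjusted p = 0.0027) and higher in the intact heart than in the peritoneal cavity (2.17 ± 0.21, adjusted p = 0.000126).

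Heat-shock chaperones were lower in the MI heart than in the intact heart in most cases. Between MI and intact heart 9 of 12 tested were lower, 0 higher and 3 not called, with a median of -1.65, against 4.96% of all tested called lower. Between intact heart and peritoneal cavity 11 were higher, 0 lower and 1 not called, with a median of 2.54, against 12.5% of all called higher. Hspa1b, an inducible chaperone, was lower in the MI heart by -2.84 ± 0.18 (adjusted p = 8.6e-05), followed by Bag3 (-2.10 ± 0.21), Hspd1 (-1.97 ± 0.21) and Hspb1 (-1.96 ± 0.25). Between intact heart and peritoneal cavity Hspa1a, at 10.60 and 11.10 in the intact heart, against 5.32 and 4.72 in the peritoneal cavity, differed by 5.83 ± 0.24 (adjusted p = 2.31e-06). The intact heart arrays, which had the lowest means for 23 of the 29 proteasome genes (Psmb5, Psmd6 and Psmd11 included), thus stood high in these chaperones. The part of this in the proteasome differences was not tested.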

How the data were processed

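The deposited signal table pairs, per the file headers, each intensity with a detection p-value (45281 probes, 6 arrays). The deposited intensity values were linear, neither normalized nor background-subtracted. How the authors made the detection p-value is not given in the sources used here. Per the labels, RNA was extracted with Trizol and biotinylated cRNA made with the Ambion MessageAmp kit. The authors' series matrix (intensity, linear, on a common distribution) served as an alternative. By rank order its replicate numbers are swapped within the MI heart and peritoneal groups, and those of the signal table are used.

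The function neqc of limma 3.58.1 (R 4.3.3) corrected the background from the detection p-values with an offset of 16, normalized by quantiles and took log2. Kept were 14817 probes that had a detection p under 0.05 on every array of 1 group or more, and per symbol the brightest, which gave 8244 named genes and 2289 unnamed probes. Group means over all 6 arrays were fitted with lmFit and eBayes (3 residual and 5.78 prior degrees of freedom), two-sided, with Benjamini-Hochberg adjustment over 10533 tests per comparison, and the fit was tested on simulated data. The number of arrays limits the precision. Named are the called members (up to 5 per direction and comparison), Psmb5 to Psmb7, Psmd14, Psmb8 to Psmb10 and, per partner list, comparison and direction, up to 4 called genes by size of difference. The other members are named to account for each. Pomp, Psme3 and Nfe2l1 were named after their values were seen. Members, lists and partner genes were chosen with earlier results of these data known. No annotation column of the platform gave positions, so coordinates are those of RefSeq's promoter table. The number of columns with per-sample values not used is 0.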

Additional observations from a re-analysis of the deposited data

How the results depend on the processing

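Over 16 alternatives, members were called in 1 direction per comparison, higher in the MI heart than in both other groups and lower in the intact heart than in the peritoneal cavity, wherever any was called. Between MI and intact heart the 5 calls became 3 with no filter on dim probes and 3 in the fit of the 2 groups alone, and lay between 0 and 4 with 1 array left out. Between intact heart and peritoneal cavity the 2 calls became 5 with median scaling and lay between 1 and 4 with 1 array left out. Between MI heart and peritoneal cavity the 2 became 4 with an offset of 50, 0 with median scaling and 0 with a detection p under 0.01 on all arrays, and lay between 0 and 2 with 1 array left out. Median scaling moved the median of all tested genes to 0.12, -0.18 and -0.07 in the 3 comparisons, against member medians of 0.65, -0.42 and 0.12. The share of all tested that was called moved as well, so these counts alone do not show a change in the members. Between MI and intact heart it was 1.44% with no filter, against 9.5% in the main fit. Between intact heart and peritoneal cavity it was 25.2% with median scaling, against 25.4%. Between MI heart and peritoneal cavity it was 14.1% with an offset of 50 and 14.8% with median scaling, against 17.6%.

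The core minus regulatory median between MI and intact heart, 0.27, was 0.35 with median scaling, 0.32 with the mean of kept probes, 0.020 with no filter and between 0.15 and 0.39 with 1 array left out. Between intact heart and peritoneal cavity, -0.36, it was -0.32 without background correction and with the series matrix, -0.30 with cyclic loess, with no filter and with the mean of kept probes, -0.40 with the strict filter, and between -0.38 and -0.26 with 1 array left out. Between MI heart and peritoneal cavity, -0.06, it was 0.012 with median scaling, 0.011 with cyclic loess, -0.16 with no filter, and between -0.13 and -0.0053 with 1 array left out. In a setting chosen after seeing the data, with only members above background in both groups, the 3 values were 0.26, -0.40 and -0.05. With no filter, genes near background enter these medians. Why the values moved was not tested.

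With the replicate number as a block, 6, 2 and 3 members were called in the 3 comparisons. The numbers do not pair the arrays by the labels, and deviations from the group means correlated between same-numbered arrays at 0.08 (MI and intact heart), 0.17 (MI heart and peritoneal cavity) and 0.18 (intact heart and peritoneal cavity). In the series matrix the numbers are swapped within the MI heart and peritoneal groups, which would turn the sign of the correlations with the intact heart, so nothing is read from them. Signal near background limits Psmb5, Psmd6 and Psmd11, and leaves 8 members unmeasured.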
